A study of Bos taurus with 8 samples.

Results

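AHR encodes the aryl hydrocarbon receptor, a transcription factor that is switched on by small molecules entering the cell. It is 1 of the 25889 rows in the count table, and it was found through its identifier, ENSBTAG00000007746, which a table by the authors of the genes that responded in choroidal cells pairs with this name. The gene was chosen by its log2 fold changes after LIF, leukemia inhibitory factor, which were positive in both endothelial cell types and far larger in aortic cells, so its own LIF responses and the difference between them are described here without a test. The cells, from cattle, were choroidal (BCE) and aortic (BAE) endothelial cells. For 6 h they received either LIF at 10 ng/ml or its vehicle, which was PBS with 0.1% BSA, and each of the 4 groups holds 2 RNA-seq libraries. Before LIF, all cells spent 3 h in an assay medium that held 10% calf serum for BCE and 1% for BAE cells. Up to then BCE cells had been grown with bFGF (5 ng/ml) and VEGF (10 ng/ml) on fibronectin and BAE cells without these factors, so cell type, serum and prior growth factors cannot be told apart in any comparison between the cell types. Both were commercial primary cultures, the BAE cells from a single lot, and the study's methods call the 2 libraries of a group biological replicates. The labels do not say whether these came from separate cultures or animals, so p-values measure only the spread between these libraries.

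AHR belongs to the bHLH-PAS family of transcription factors, which also holds its dimer partner ARNT and the hypoxia factor HIF1A. Without a ligand it rests in the cytosol with HSP90 and co-chaperones. When it binds a pollutant such as dioxin, or a natural ligand derived from tryptophan, it enters the nucleus, pairs with ARNT and raises genes of foreign-compound metabolism such as CYP1A1 and CYP1B1, together with its own repressor AHRR. In blood vessels it is known for a role in closing a fetal liver shunt and for the response of endothelium to ligands carried in blood. LIF acts through the receptor pair LIFR and gp130, JAK kinases and STAT3. Messenger RNA shows how much receptor message a cell holds and says nothing of whether the receptor was bound or active.

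Library totals ranged from 18600598 to 35269335 counts, and between 15236 and 15768 genes were detected per library. Levels are given as CPM, the usual depth-scaled count, with TMM scaling across the 8 libraries. On this scale 3 counts correspond to between 0.0873 and 0.156 CPM. AHR had between 273 and 1376 counts, far above that limit in every library. The counting intervals below are exact Poisson intervals at 95% and cover counting error only. None of the 13 endothelial markers listed for this work, PECAM1, CDH5 and VWF among them, could be paired with an identifier, and neither could the 24 markers of mural, fibroblast, leukocyte, pigment and retinal epithelial cells, so the cell type label could not be checked on them. Among genes with a name, and chosen after their values were seen, SELP, a leukocyte adhesion molecule of activated endothelium, lay between 138 and 405 CPM in the 8 libraries, and PCDH12, a protocadherin of endothelial junctions, between 25.5 and 119 CPM. In RefSeq's bovine annotation of assembly ARS-UCD2.0, a build other than that of the counts and used for names only, AHR lies between the protein-coding genes AGR3 and SNX13, and 1 small nucleolar RNA gene overlaps it. Whether counting used strand is not stated, so reads of an overlapping gene cannot be set apart from those of AHR.

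AHR message was lowest in vehicle-treated BAE cells, higher in vehicle-treated BCE cells, higher again after LIF in BCE cells and highest after LIF in BAE cells. The vehicle-treated BAE libraries held 361 and 273 counts of AHR, or 10.5 and 12.5 CPM, with a mean of 11.5 ± 1.41 CPM (SD, n = 2). The vehicle-treated BCE libraries held 666 and 495 counts, or 22.4 and 20.5 CPM, with a mean of 21.5 ± 1.31 CPM (SD, n = 2). BCE cells thus carried more AHR message than BAE cells before LIF. After LIF the BCE libraries held 987 and 768 counts, or 38.2 and 39.9 CPM, with a mean of 39.1 ± 1.19 CPM (SD, n = 2). After LIF the BAE libraries held 1028 and 1376 counts, or 49.1 and 53.4 CPM, with a mean of 51.2 ± 3.06 CPM (SD, n = 2). The cell type with the lower level under vehicle was therefore the one with the higher level under LIF. In cultures measured in bulk, fewer cells that express a gene and less RNA of it per cell cannot be told apart.

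**Figure D1:**
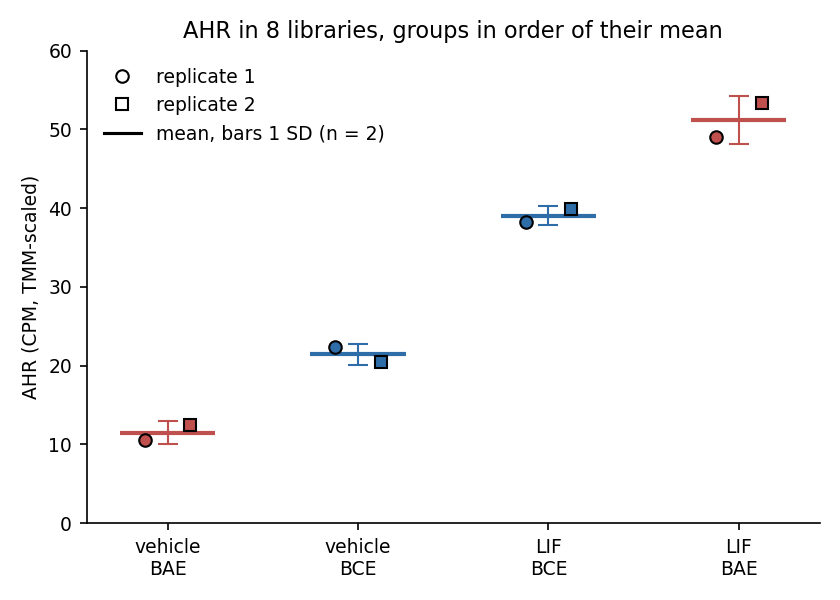
AHR level in CPM (y axis, from 0) in each of the 8 libraries, by group (x axis, ordered by mean). Circles and squares are replicates 1 and 2, horizontal lines are group means and bars are 1 SD of 2 libraries. No group overlaps its neighbour, from 10.5 CPM in the lowest vehicle-treated BAE library to 53.4 CPM in the highest LIF-treated BAE library.

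Every step in this order was wider than the spread within the groups on either side. The highest vehicle-treated BAE library and the lowest vehicle-treated BCE library were 8.03 CPM apart, where the larger of the 2 SDs was 1.41 CPM. The highest vehicle-treated and the lowest LIF-treated BCE library were 15.8 CPM apart, the widest of the 3 gaps. The highest LIF-treated BCE and the lowest LIF-treated BAE library were 9.17 CPM apart, where the larger SD was 3.06 CPM, and the ratio of the 2 means was the smallest of the order at 1.31. The order rests in part on the LIF responses that chose the gene, so these gaps are a description. Of all 13646 genes, 0.616% had the groups in this order with no overlap between neighbours. The counting intervals of the 2 libraries of each group overlapped, and those of neighboring groups did not. These intervals leave out the spread between replicates, which exceeded counting noise over all genes, so they are narrower than the full uncertainty. The intervals of both vehicle-treated BAE libraries, from 9.45 to 11.6 CPM and from 11.1 to 14.1 CPM, overlapped, while the interval of the vehicle-treated BCE library nearest to them began at 18.8 CPM. Likewise the interval of the higher LIF-treated BCE library ended at 42.8 CPM and that of the lower LIF-treated BAE library began at 46.1 CPM. The order was the same on plain library totals and with DESeq2's size factors.

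LIF raised the AHR level 1.82-fold in BCE cells and 4.46-fold in BAE cells, as ratios of the group means. Set library against library, the 4 ratios of LIF to vehicle lay between 1.71 and 1.94 in BCE cells and between 3.93 and 5.09 in BAE cells, so the lowest ratio in BAE cells exceeded the highest in BCE cells. On the linear scale the gain was 17.6 CPM in BCE and 39.7 CPM in BAE cells, larger in BAE cells as well. The fitted log2 fold change was 0.86 (standard error 0.0832) in BCE cells and 2.20 (standard error 0.0911) in BAE cells. These values chose the gene and carry no p here. In BCE cells 0.922% of the 13014 genes tested passed an adjusted p of 0.05 and in BAE cells 22.2% of 13034, and the median log2 fold change over all genes was -0.0049 in BCE and -0.0039 in BAE cells.

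Among all genes tested, the AHR response stood near the top in both cell types, and higher in the order of BAE cells. This order counts genes whether or not they passed the threshold. Its log2 fold change ranked 21 of 13034 from the top in BAE cells and 66 of 13014 in BCE cells. Of the 12457 genes tested in both cell types, 53 had a larger log2 fold change than AHR in BCE cells, 12 in BAE cells and 10 in both. Of these 10, the ones with a name were CEBPD and BCL3, regulators of the acute phase and of NF-kappaB, SOCS3, the feedback inhibitor of JAK signaling, GADD45G, a stress-inducible growth arrest gene, and CH25H, cholesterol 25-hydroxylase. In the plot of both LIF effects AHR lies below these genes on both axes, and well above the line of equal response.

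**Figure D2:**
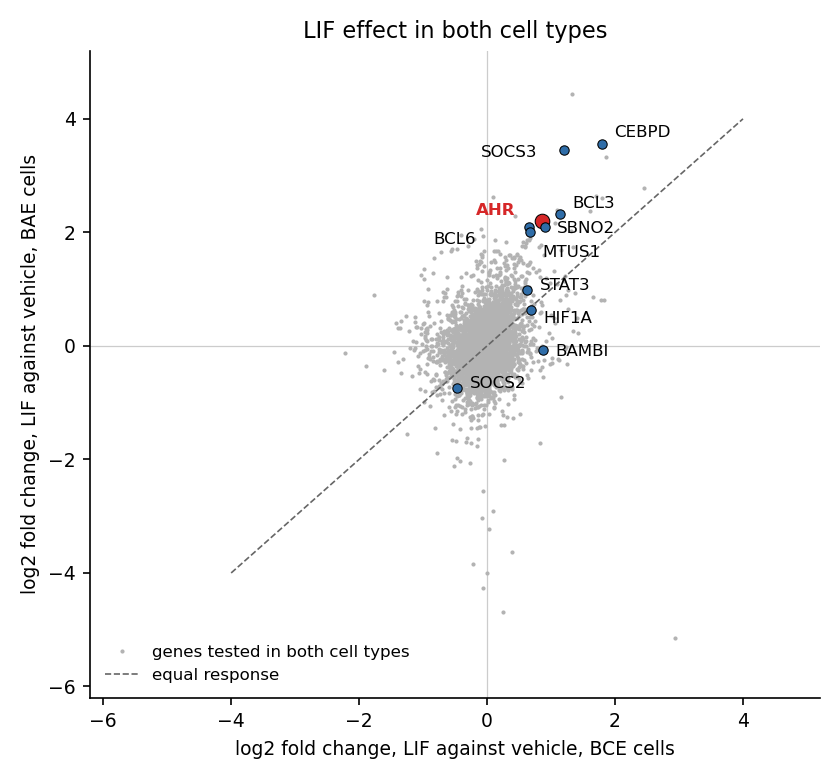
Log2 fold change of LIF against vehicle in BCE cells (x axis) and BAE cells (y axis) for the 12457 genes tested in both, each a grey dot. AHR is in red, 10 named genes are in blue, and the dashed line marks an equal response. AHR lies at 0.86 and 2.20, and SOCS3 and CEBPD lie above it.

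The difference of the LIF effects, BCE minus BAE, was -1.31 for AHR on the log2 scale (standard error 0.129), meaning that the fold response in BCE cells was 0.404 of that in BAE cells. It is a description, since the gene was chosen for it. Over all 13646 genes in this fit the median difference was 0.02, and 3.68% passed the threshold, 2.52% with a negative difference and 1.16% with a positive one. AHR ranked 251 from the most negative end of all genes, whether or not they passed. Among genes with a name, SOCS3, CEBPD and BCL6 had a more negative difference. With any 1 of the 8 libraries left out, the AHR value stayed between -1.42 and -1.18.

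The comparison between the cell types without LIF was not named in choosing AHR, but its vehicle-treated libraries also enter the LIF responses. A lower vehicle level in BAE cells, or a higher one in BCE cells, widens the difference that chose the gene. The p-values of this comparison are therefore not independent of that choice. AHR was higher in vehicle-treated BCE than in vehicle-treated BAE cells, by 0.91 on the log2 scale (standard error 0.115). The quasi-likelihood test of edgeR gave an adjusted p of 3.63e-05. The adjusted p lay between 7.47e-15 and 0.000511 over the alternatives, and the difference was positive in each. Such a difference was common between these cells, since 53.8% of 13426 genes passed, 26.2% higher in BCE and 27.6% lower, and AHR ranked 1281 in size among the 3520 that were higher. Serum and prior growth factors differed between the same libraries, and their part in the result cannot be told apart from cell type.

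The rest of the AHR pathway could be followed only in small part, because the table gives Ensembl identifiers and names could be paired with 110 of them, which the authors' own test had picked as LIF-responsive in BCE cells. Of the 79 genes listed for AHR biology, 5 could be identified. Those described here are HIF1A from the family of AHR and STAT3, SOCS2 and SOCS3 from LIF signaling. None of the 6 genes of the cytosolic complex, the 14 nuclear partners with ARNT among them, the 3 feedback genes AHRR, TIPARP and CUL4B, the 16 target genes such as CYP1A1, CYP1B1 and NQO1, or the 12 genes of ligand supply could be paired with an identifier, and neither could LIFR or IL6ST. Whether genes driven by the receptor moved with its message was therefore not analysed here.

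HIF1A (ENSBTAG00000020935), the oxygen-sensitive relative of AHR that shares the partner ARNT, followed a different order. It held 203 and 217 CPM in vehicle-treated BAE libraries and 436 and 383 CPM in vehicle-treated BCE libraries. After LIF it held 661 and 651 CPM in BCE and 322 and 310 CPM in BAE cells. Both BCE groups lay above both BAE groups, whereas AHR was highest in LIF-treated BAE cells. HIF1A rose by a log2 fold change of 0.68 in BCE cells (standard error 0.0602, adjusted p = 0.000397 from edgeR's test) and of 0.62 in BAE cells (standard error 0.0452, adjusted p = 2.9e-08). The difference of its LIF effects was 0.09 (standard error 0.0818, adjusted p = 0.67), where AHR had -1.31. Under vehicle HIF1A was 0.97 higher in BCE cells on the log2 scale (standard error 0.0697, adjusted p = 2.42e-07), close in size to the 0.91 of AHR.

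Of the LIF signaling genes described here, STAT3 and SOCS3 rose and SOCS2 fell past the threshold in each cell type, where 0.692% of all genes rose and 0.231% fell in BCE cells and 13.6% rose and 8.55% fell in BAE cells. They had been called in BCE cells on these libraries, so the BCE counts are not independent evidence. SOCS3 (ENSBTAG00000008441), a STAT3-induced brake on the gp130 receptor, held 6.49 and 6.04 CPM in vehicle-treated BAE and 10.5 and 9.79 CPM in vehicle-treated BCE libraries. After LIF it held 23.9 and 22.9 CPM in BCE and 69.7 and 64.6 CPM in BAE libraries, the same order of groups as AHR and again without overlap. Its log2 fold changes were 1.21 in BCE and 3.45 in BAE cells, and their difference of -2.21 passed the threshold (standard error 0.132, adjusted p = 1.05e-07 from edgeR's test).

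STAT3 (ENSBTAG00000021523), the transcription factor through which LIF acts, rose by 0.63 in BCE and 0.99 in BAE cells on the log2 scale. Its LIF-treated libraries did not separate by cell type, with 325 and 329 CPM in BCE and 332 and 328 CPM in BAE cells, whereas those of AHR did. The difference of its LIF effects was -0.33 (standard error 0.0636, adjusted p = 0.0075 from edgeR's test), a smaller value than that of AHR. SOCS2, a feedback inhibitor of growth hormone signaling, fell by 0.47 in BCE and by 0.75 in BAE cells on the log2 scale. Its call in BCE cells was lost without LIF-treated BCE replicate 1 (adjusted p = 0.456 from edgeR's test) or replicate 2 (0.0644). All 3 were higher in vehicle-treated BCE than in vehicle-treated BAE cells past the threshold, as were AHR and 26.2% of all genes.

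AHR stands in several of the study's GO terms on transcription and gene expression for genes raised by LIF in BCE cells, beside 21 other genes described here, HIF1A and STAT3 among them. These were called on the same libraries and were listed here after values were seen, so their counts in BCE cells repeat their selection. All 21 rose past the threshold in BCE cells, with a median log2 fold change of 0.63, and AHR exceeded 16 of them. Without LIF-treated BCE replicate 1 the count fell to 10, and without replicate 2 to 13. In BAE cells 20 of the 21 rose past the threshold, against 13.6% of all genes, with a median of 0.99, and AHR exceeded 19 of them. CEBPD at 3.57 and BCL3 at 2.32 lay above AHR, SBNO2, a regulator of inflammatory gene expression, lay next below at 2.10, and BCL6, a zinc finger repressor, at 2.09. BAMBI, a TGF-beta pseudoreceptor, was the gene that did not pass in BAE cells (log2 fold change -0.07, standard error 0.167, adjusted p = 0.812 from edgeR's test).

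**Figure D3:**
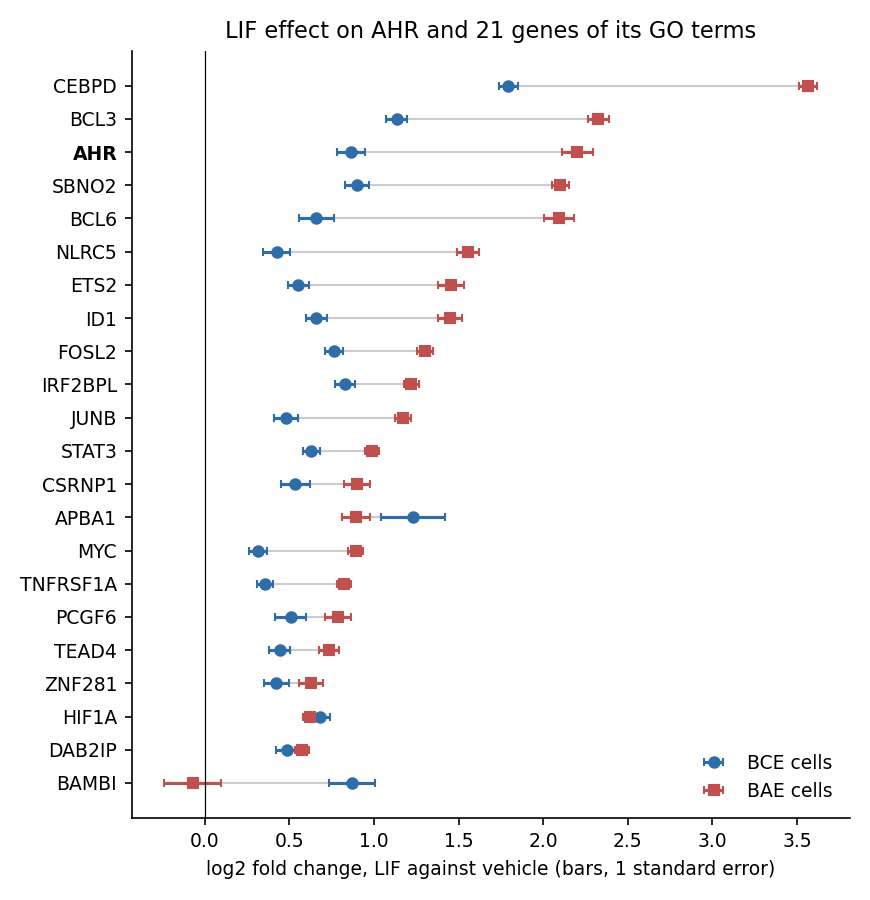
Log2 fold change of LIF against vehicle (x axis) for AHR and the 21 genes listed beside it in GO terms on transcription and gene expression (y axis, ordered by the BAE value). Blue circles are BCE cells, red squares are BAE cells and bars are 1 standard error. AHR, in bold, stands below CEBPD and BCL3 with 0.86 and 2.20, and BAMBI is the one gene with a BAE value below 0.

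Most of these genes responded more in BAE cells, and AHR was among those that did so by the widest margin. For 18 of the 21 the log2 fold change was the larger one in BAE cells. The difference of the LIF effects passed the threshold for 13 with the larger rise in BAE cells. It also passed for 1, BAMBI, with the larger rise in BCE cells. Of all genes 2.52% passed with a negative and 1.16% with a positive difference. Among the genes with a name, all picked as LIF-responsive in BCE cells, 45 passed with the larger value in BAE and 6 in BCE cells. Of the 110 with a name, 79 had a negative difference, so this lean was not particular to the 21. The BAMBI difference of 0.97 lost its call without vehicle-treated BAE replicate 1 (adjusted p = 0.103 from edgeR's test), LIF-treated BAE replicate 2 (0.0718) or LIF-treated BCE replicate 2 (0.081). Only CEBPD (-1.74) and BCL6 (-1.40) had a more negative difference than AHR, and SBNO2 and BCL3 followed it at -1.17 and -1.16. The AP-1 genes JUNB and FOSL2 and the growth regulator MYC had -0.66, -0.51 and -0.55, also past the threshold. Under vehicle, 10 of the 21 genes were higher in BCE cells, 5 were lower and 6 did not pass the threshold, against 26.2% higher and 27.6% lower of all genes. SBNO2 had nearly the same LIF effects as AHR and a vehicle difference of -0.16 that did not pass in edgeR's test (standard error 0.0826, adjusted p = 0.117), where AHR had 0.91. Without vehicle-treated BCE replicate 2 the SBNO2 value was -0.25 and passed (adjusted p = 0.0317 from edgeR's test).

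The 8 named genes most like AHR were taken as those with the highest Pearson correlation of log2 CPM with AHR over the 8 libraries. This is a description over 4 groups of 2 libraries that share cell type, treatment and serum, and all genes with a name had been picked for a response in BCE cells. They were ICAM1 (0.994), a leukocyte adhesion molecule, BCL3 (0.991), MTUS1 (0.991), a microtubule-associated protein, LTBR (0.99), the lymphotoxin beta receptor, CEBPD (0.99), DDX21 (0.986), an RNA helicase, ARRDC3 (0.977), an arrestin-related protein, and STAT3 (0.977). Of the 13645 genes compared, 4 reached 0.99 and 49 reached 0.95, and 12 of these 49 had a name. The second highest value, 0.991, was that of Novel00979, a transcribed unit without an Ensembl identifier, whose LIF effects of 1.06 and 2.16 on the log2 scale were also close to those of AHR.

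A correlation disregards the size of the response. LTBR rose by 0.33 and 0.63, and ICAM1 by 0.49 and 1.47, in BCE and BAE cells on the log2 scale, less than AHR in both. The LTBR call in BCE cells was lost without LIF-treated BCE replicate 1 (adjusted p = 0.153 from edgeR's test) or 2 (0.248). For LTBR the difference of the LIF effects, -0.27 (adjusted p = 0.0411 from edgeR's test), no longer passed with DESeq2's test (adjusted p = 0.0526); it was lost too without any 1 of 6 libraries, those other than vehicle-treated BCE replicates 1 and 2 (adjusted p between 0.0824 and 0.208). DDX21 had a log2 fold change of 0.26 in BCE cells and did not pass there (adjusted p = 0.056), but passed with DESeq2's test (adjusted p = 0.0124). By distance between the pairs of LIF log2 fold changes, the nearest named genes were SBNO2 (0.106), BCL6 (0.230), MTUS1 (0.277), BCL3 (0.298) and EFNA1 (0.354), an ephrin ligand. MTUS1 and BCL3 were the 2 genes among the nearest 8 on both measures. MTUS1 held 6.40 and 6.32 CPM in vehicle-treated BAE, 10.7 and 11.2 CPM in vehicle-treated BCE, 17.2 and 17.5 CPM in LIF-treated BCE and 23.1 and 26.7 CPM in LIF-treated BAE libraries. It had the same order of groups as AHR, with log2 fold changes of 0.67 and 2.00 and a vehicle difference of 0.77. Its call in BCE cells was lost without LIF-treated BCE replicate 1 (adjusted p = 0.0626 from edgeR's test) or 2 (0.0644).

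**Figure D4:**
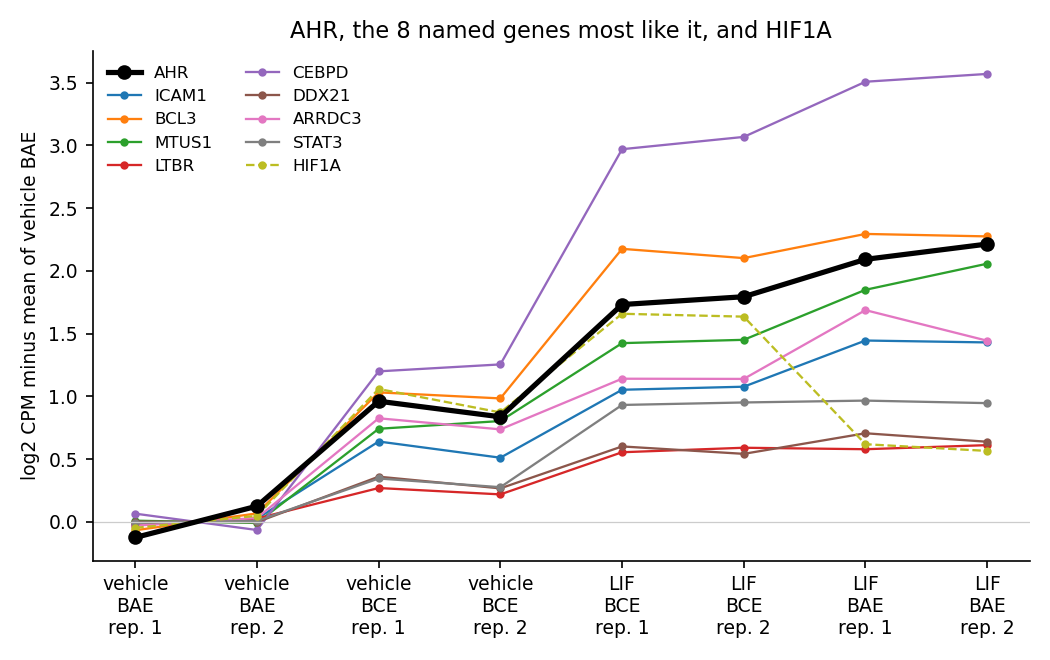
Log2 CPM of AHR (thick black), the 8 named genes most correlated with it and HIF1A (dashed) in each of the 8 libraries (x axis), minus the mean of the vehicle-treated BAE libraries of the same gene (y axis). Lines join the libraries for reading only. The 8 genes rise after LIF to different heights, CEBPD the highest. For STAT3 and LTBR the LIF-treated BCE and BAE libraries overlap, unlike those of AHR. HIF1A lies lower in the LIF-treated BAE than in the LIF-treated BCE libraries, though above the vehicle-treated BAE libraries.

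The complete order of AHR, with vehicle-treated BAE lowest, vehicle-treated BCE next, then LIF-treated BCE, LIF-treated BAE highest and no overlap between neighbours, was met by 84 of the 13646 genes, AHR included, or 0.616%. This order was taken from AHR after its values were seen. Among the other 109 genes with a name that could be compared it was met by 14, all of them in a set already called after LIF in BCE cells. They included SOCS3, CEBPD, BCL3, BCL6, MTUS1, ICAM1 and NLRC5, a regulator of MHC class I genes. Of the 21 genes listed beside AHR in the GO terms, 5 met it, BCL6, NLRC5, BCL3, TEAD4 and CEBPD.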

How the data were processed

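Per the study's methods, paired-end reads were aligned by the authors to the bovine assembly UMD 3.1 with TopHat (version 2.0.12; index by Bowtie2, version 2.2.3) and counted per gene with HTSeq (version 0.6.1). The authors deposited raw counts without normalization, and strand use and multi-mapping reads are not described. Their table of genes called with DESeq (version 1.18.0) in BCE cells, which holds group means, fold changes and p-values, was read for names only, each being the symbol of a Swiss-Prot hit. The table under the BAE name is identical to it and was not used.

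Here edgeR (version 4.0.16, under R version 4.3.3) was applied to the counts: filterByExpr (minimum count 10, minimum total 15), TMM, quasi-likelihood test, Benjamini-Hochberg adjustment over all genes tested, threshold 0.05. Each comparison used its own 4 libraries, and the difference of LIF effects was an interaction over all 8, without a replicate block. Standard errors were derived from the F statistic. Log2 CPM used a prior count of 2. The procedure was also run on simulated counts with known changes. Replicates differed beyond counting noise (chi-square per degree of freedom 2.64 to 10.2). Alternatives were DESeq2's size factors and test (version 1.42.0), other filters, a replicate block, a joint fit of the 8 libraries, and leaving out each library in turn.

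The gene, lists and tests were chosen with earlier results of these data known. Genes named are AHR and members of lists of AHR and LIF biology with an identifier (11 genes of these lists always, and up to 4 further per list by size of change). Added to these were the 8 most correlated with AHR and genes from the 8 nearest to it by LIF effects. The GO term genes, 4 endothelial genes with SELP and PCDH12 among them, and the order of groups were added after values were seen. GO enrichment was not rerun. One gene of the lists is not reported here.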

Additional observations from a re-analysis of the deposited data

Results flagged for a closer look

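For 23 of the genes named or plotted here the response to LIF was unequal in the 2 cell types (interaction term in edgeR over 8 libraries, adjusted p under 0.05). AHR, chosen for its difference of -1.31, is listed with them as a description. Over all 13646 genes 3.68% passed. Among the genes with a name, 45 passed with the larger value in BAE and 6 in BCE cells. Several of the 23 were taken for a correlation with AHR or for LIF effects close to its own. Their negative values partly repeat that choice. On the log2 scale, BCE minus BAE, SOCS3 had a difference of -2.21 and CEBPD of -1.74, followed by BCL6 at -1.40 and MTUS1 at -1.30. The value was -1.21 for ARRDC3, -1.19 for EFNA1, -1.17 for SBNO2 and -1.16 for BCL3. It was -1.10 for both NLRC5 and APOL3, -0.954 for ICAM1, -0.872 for ETS2, -0.757 for ID1, -0.681 for MARCH3 and -0.661 for JUNB. The smaller negative values were -0.546 for MYC, -0.508 for FOSL2, -0.439 for TNFRSF1A, -0.415 for DDX21, -0.361 for IRF2BPL, -0.327 for STAT3 and -0.269 for LTBR. BAMBI had the one positive value, 0.972. Serum in the assay medium differed with cell type in all of these libraries, and its part cannot be told apart.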

How the results depend on the processing

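The AHR log2 fold changes kept their direction under every alternative that was run. They lay between 0.80 and 0.93 in BCE cells and between 2.06 and 2.32 in BAE cells with each library left out, where an arm then holds 1 library that is assumed to vary like the others. The vehicle difference lay between 0.77 and 1.02. The number of genes passing in BCE cells, 120, went to 437 without the filter, 226 with the replicate block and 217 with all 8 libraries in one fit, and to between 55 and 1423 with a library left out: 1423 and 477 without vehicle-treated BCE replicate 1 or 2, 56 and 55 without LIF-treated BCE replicate 1 or 2. The 21 GO term genes passing there went to between 10 and 21. In BAE cells the 2889 genes went to 1920 with DESeq2's test and to between 1807 and 2905 with a library left out, lowest without LIF-treated BAE replicate 1. The 502 genes of the interaction went to 889 without the filter and to between 261 and 948 with a library left out, highest without vehicle-treated BCE replicate 1, and from 261 to 293 without vehicle-treated BAE replicate 1 or any 1 of the LIF-treated libraries. The cause was not tested. Of the 8 genes most correlated with AHR, 2 were among the nearest 8 by distance. Replicate numbers were those of the sample titles. The deposited columns carry other numbers, so the block joins libraries whose column numbers differ within each cell type for replicate 1. Deviations of same-numbered libraries correlated at 0.10 in BCE and -0.02 in BAE cells. With 2 libraries per group this cannot decide whether the title number marks a pair. With the block the AHR values stayed within the ranges above. With 2 libraries per group, calls on small changes such as those of LTBR and DDX21 depended on the setting. Calls in BCE cells on larger changes could be lost too when a LIF-treated BCE library was left out. Among these were BCL6, MTUS1 and BAMBI, with log2 fold changes of 0.66, 0.67 and 0.87 on all 4 BCE libraries.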
